A study of Mus musculus with 9 samples.

Results

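The genes of the interleukins and of their receptors were examined for 2 histone marks in MLL-ENL leukemia cells of the mouse. This is a myeloid leukemia whose driver is the fusion gene of Kmt2a and Mllt1. The members were all genes whose symbol begins with Il followed by a digit, which gave 83 of the 26611 named genes. By their known roles they were 37 ligands, 39 receptor chains, 5 inhibitors (Il1rn, Il1f5, Il18bp, Il13ra2 and Il22ra2) and 2 others, an antisense transcript (Il1bos) and an amino acid oxidase (Il4i1). H3K27me3, H3K4me3 and the Flag tag (M2 antibody) were each immunoprecipitated from 3 lines, with 1 library for each combination. The first line is labelled fl and is called floxed here. The second is labelled ΔERT2 and is called deleted. The third carries Hhex-F, a Flag-tagged form of the homeobox transcription factor Hhex, on top of ΔERT2 and is called rescue. All lines carry the MLL-ENL leukemia. The labels name neither the floxed gene nor the number of clones or animals behind a line.

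Interleukins are secreted signals between blood and tissue cells, and most are silent until an immune cell is activated. Many act through shared receptor chains: Il6st (gp130) serves the interleukin-6 family, Il1rap the interleukin-1 receptors, Il2rg the common gamma chain cytokines, Il10rb the interleukin-10 family and Il17ra the interleukin-17 family. H3K27me3 is placed by Polycomb repressive complex 2 over silent genes, often across the whole gene, whereas H3K4me3 marks promoters that are active or poised, most of them rich in CG dinucleotides.

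The promoters of 5 members are shown because they differ in CG content and strand, both of which are set beside the H3K4me3 counts further on. Each is the RefSeq stretch from 250 bases before to 50 bases after the start in the RefSeq promoter table, on the build GRCm38.p6, written 5′ to 3′ along the gene with CG dinucleotides in capitals. Il6st lies at chr13:112463820-112464119 on the plus strand and holds 33 CG. Il17rd lies at chr14:27038751-27039050 on the plus strand and holds 19; the start used there lies inside the gene span given further on. Il1f9 lies at chr2:24186226-24186525 on the plus strand and holds 1. Il2ra lies at chr2:11642542-11642841 on the plus strand and holds 3. Il6ra lies at chr3:89913147-89913446 on the minus strand and holds 25.
Il6st: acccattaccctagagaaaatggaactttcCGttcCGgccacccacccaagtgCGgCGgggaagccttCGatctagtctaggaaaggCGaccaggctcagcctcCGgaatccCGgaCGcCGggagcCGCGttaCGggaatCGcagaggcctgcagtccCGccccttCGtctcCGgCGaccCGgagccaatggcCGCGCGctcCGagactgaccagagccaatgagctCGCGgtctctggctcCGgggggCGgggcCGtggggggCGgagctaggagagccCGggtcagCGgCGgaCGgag
Il17rd: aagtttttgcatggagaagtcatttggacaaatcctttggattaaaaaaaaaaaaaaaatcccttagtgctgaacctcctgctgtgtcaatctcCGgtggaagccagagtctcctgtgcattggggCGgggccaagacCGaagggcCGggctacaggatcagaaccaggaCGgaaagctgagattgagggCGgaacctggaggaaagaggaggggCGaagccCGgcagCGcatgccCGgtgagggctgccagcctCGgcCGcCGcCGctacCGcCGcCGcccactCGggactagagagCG
Il1f9: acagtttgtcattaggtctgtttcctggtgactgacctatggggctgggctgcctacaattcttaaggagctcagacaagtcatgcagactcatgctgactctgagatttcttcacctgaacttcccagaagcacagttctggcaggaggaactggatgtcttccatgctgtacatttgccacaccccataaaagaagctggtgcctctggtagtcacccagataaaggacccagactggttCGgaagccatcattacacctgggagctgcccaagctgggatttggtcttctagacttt
Il2ra: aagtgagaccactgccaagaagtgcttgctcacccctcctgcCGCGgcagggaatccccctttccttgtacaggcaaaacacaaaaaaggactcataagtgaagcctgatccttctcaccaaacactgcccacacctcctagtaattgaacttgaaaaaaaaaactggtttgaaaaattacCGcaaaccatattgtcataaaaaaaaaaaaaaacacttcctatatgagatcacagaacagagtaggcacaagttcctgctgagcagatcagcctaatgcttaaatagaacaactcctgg
Il6ra: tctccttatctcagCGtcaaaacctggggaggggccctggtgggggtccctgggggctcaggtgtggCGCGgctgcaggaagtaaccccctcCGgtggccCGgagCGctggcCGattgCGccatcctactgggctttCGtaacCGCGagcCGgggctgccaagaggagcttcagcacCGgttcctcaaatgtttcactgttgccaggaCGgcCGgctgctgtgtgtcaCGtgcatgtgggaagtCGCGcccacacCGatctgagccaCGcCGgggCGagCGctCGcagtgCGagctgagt

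The H3K27me3 libraries of floxed, deleted and rescue held 2444487, 2535576 and 4203349 counts in named genes, against 645240, 420701 and 395133 for H3K4me3, so H3K4me3 values are the less precise. Levels are given as CPM, the count as a share of all counts in the named genes of the library, multiplied by 1000000. H3K27me3 was counted over whole gene spans and is compared between genes per kb of span. For H3K4me3 each member had 1 window of 301 bp. A member is called measured when its mean over the 3 libraries of a mark was at least 20 counts. Scored lower or higher means that the CPM of a measured gene differed by a factor of 1.5 or more while 1 lay outside the 95% interval of the ratio (exact conditional binomial, Clopper-Pearson). With 1 library for each mark and line there is no replicate check and no test, and the intervals, given in brackets after each ratio, cover counting error only. Fewer cells carrying a mark and less of it per cell cannot be told apart in such bulk libraries. Each library enters 2 of the 3 comparisons of its mark, so these are not independent. Hhex itself gave 332, 385 and 487 H3K27me3 counts and 60, 68 and 130 H3K4me3 counts in floxed, deleted and rescue. Its H3K4me3 window was scored higher in deleted than in floxed, at a ratio of 1.74 (1.21 to 2.50), and higher in rescue than in deleted, at 2.04 (1.51 to 2.77), and than in floxed, at 3.54 (2.59 to 4.89). Which stretch was deleted is not given by the labels, and these counts were not used as a check of them. Of 10 myeloid leukemia markers 7 had measured H3K4me3 (Cebpa, Elane, Hoxa9, Itgam, Kit, Mpo and Spi1), while Ptprc, Meis1 and Fcgr3 did not. It was measured at 1 of 4 B cell markers (Ebf1) and 0 of 5 T cell markers. Of 3 erythroid and 3 stromal markers 0 were measured. H3K27me3 was measured at 4 of the myeloid markers: Kit, Meis1, Mpo and Ptprc. It was measured at 3 of the B cell, 5 of the T cell, 0 of the erythroid and 2 of the stromal markers. For H3K4me3, Elane was lower in deleted than in floxed and higher in rescue than in deleted, and Mpo lower in rescue than in floxed. For H3K27me3, Mpo was higher and Kit lower in rescue than in both other lines. Strand limits the H3K4me3 part of this check, as shown further on for the members. A plus-strand promoter entry was found for 5 of the myeloid, 2 of the B cell, 1 of the T cell, 1 of the erythroid and 0 of the stromal markers.

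H3K27me3 was measured at 57 of the 83 members, and the ligand genes carried more of it per kb than the receptor genes. The median over the 37 ligands was 1.80 CPM per kb, over the 39 receptors 0.521, over all members 1.13 and over all named genes 0.230. Ligand genes were also the shorter, with a median length of 6206 bp against 28755 bp for the receptors, and the part of length in this difference was not tested. For this report each member was also placed in 1 group of cells. The myeloid group holds chains that are not particular to myeloid cells: Il2rg, Il6st, Il1rap, Il10rb, Il17ra, Il4ra and Il15ra. Its values therefore do not stand for myeloid genes alone. In this grouping the 24 lymphoid members had a median of 2.22 CPM per kb, the 31 members of other tissues 1.30 and the 28 myeloid members 0.348. The order was thus lymphoid, other, myeloid. The myeloid median was the closest to that of all named genes, though above it, at 0.348 against 0.230.

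Among the ligands, the densest H3K27me3 lay over genes of T cells and of epithelia. Il31, a T cell cytokine of itch (chr5:123480152-123482623), had 44, 36 and 37 counts and a mean of 7.01 CPM per kb, above 94.8% of all named genes. Il1f10, an interleukin-1 family ligand of skin also known as interleukin-38, had 26, 31 and 75 counts and 5.17 CPM per kb. Il25, an epithelial ligand of the interleukin-17 family, had 44, 42 and 55 counts and 5.05 CPM per kb. These 3 short genes reached their density with few counts. Il5, the growth factor of eosinophils, had 47, 54 and 81 counts and 4.62 CPM per kb. Its neighbours in the type 2 cytokine locus on chromosome 11 were also covered, Il4 with 42, 40 and 90 counts and Il13 with 35, 25 and 45. None of the 3 genes of that locus was scored, and their CPM ratios ran from 0.689 (Il13, deleted against floxed) to 1.36 (Il4, rescue against deleted). Il3, a growth factor for myeloid progenitors that is made mainly by T cells, had 19, 17 and 37 counts and 3.54 CPM per kb. Il10, an anti-inflammatory cytokine of macrophages and T cells, had 40, 51 and 96 counts and 3.86 CPM per kb, the most of the myeloid ligands. Il6, an inflammatory ligand of macrophages, had 31, 30 and 50 counts and 1.78 CPM per kb. The ligands best known from macrophages thus spanned a wide range. Il1a and Il1b, the interleukin-1 ligands of monocytes, were not measured, with 19, 7 and 25 counts and 13, 16 and 8 counts. The antisense gene Il1bos overlaps Il1b, and without stated strand in the counting their reads cannot be told apart.

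Among the receptors, a few genes stood far above the receptor median. Il17rd, an antagonist of fibroblast growth factor signalling with an interleukin-17 receptor domain (chr14:27038964-27107286), had 1382, 1032 and 2384 counts, the most of any member, and 7.52 CPM per kb, above 95.1% of all named genes. Il9r, a receptor of T cells and mast cells, had 132, 153 and 193 counts and 4.73 CPM per kb. Il2rb, the beta chain for interleukins 2 and 15 on T and NK cells, had 168, 144 and 233 counts and 4.15 CPM per kb. At the low end were receptors of several tissues, among them Il20rb (0.100 CPM per kb), an epithelial chain. Il18rap (0.132), a chain of the interleukin-18 receptor under the measured level, was another. The receptors grouped as myeloid lay on both sides of the receptor median, with Il6ra at 1.13 and Il10ra at 0.965 above it. Il4ra, which binds interleukins 4 and 13, had 7, 8 and 11 counts. Il10rb had 1, 5 and 9 counts, Il15ra had 5, 4 and 13, and Il2rg had 0, 2 and 2, all under the measured level. With 0.0769 CPM per kb at Il10rb and 0.0787 at Il15ra, both lay lower still than Il20rb and Il18rap. Il3ra, the alpha chain for interleukin-3, had 5, 12 and 9 counts and was not measured either. Among the shared chains Il6st had the most, with 238, 247 and 361 counts and 2.19 CPM per kb. Il1rap had 59, 55 and 82 counts over a span of 143443 bp, or 0.152 CPM per kb, and Il17ra had 20, 21 and 22 counts, or 0.352 CPM per kb.

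**Figure D1:**
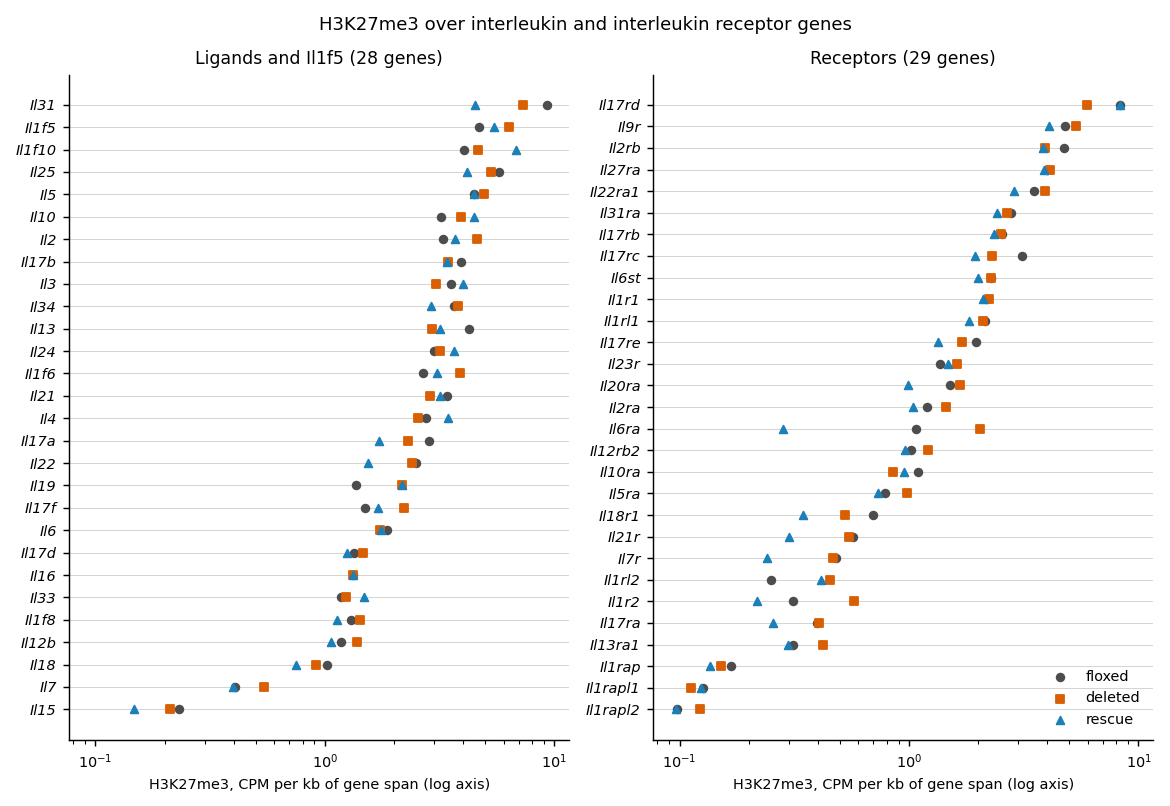
H3K27me3 in CPM per kb of gene span (log axis) for the 57 measured members, with 1 point per library (floxed, deleted, rescue) and no error bars; the left panel holds the 27 ligands and the inhibitor Il1f5, the right panel the 29 receptors. Most ligands sit above 1 CPM per kb, the receptors spread from about 0.1 to above 7, and Il6ra shows the widest gap between libraries.

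Of the 5 inhibitors, Il1f5, the interleukin-36 receptor antagonist, was the only measured one, with 63, 88 and 125 counts and 5.49 CPM per kb. Il1rn, the interleukin-1 receptor antagonist, had 6, 20 and 12 counts. Il18bp, a secreted trap of interleukin-18, had 0, 0 and 2 counts, the decoy Il13ra2 had 3, 1 and 6, and Il22ra2, a soluble trap of interleukin-22, had 7, 7 and 9. Il11ra2 and Il4i1 had 0 counts in all 3 libraries. Il11ra2 is a near-identical copy of Il11ra1, so its zeros are uncertain.

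Between deleted and floxed, H3K27me3 was higher in deleted at 3 receptor genes and lower at 0 members. Among all 10604 measured genes 4.72% were higher and 5.39% lower (500 and 572 genes, which turned to 602 and 474 with background scaling, with the members at 3 and 0 in both), so the members' 3 of 57 higher lies near the background. Il6ra, the ligand-binding chain for interleukin-6 (chr3:89869324-89913196, minus strand), had 115, 227 and 52 counts. The deleted library was the highest and the rescue library the lowest at this gene, although rescue had the most counts in all. In CPM these were 47.0, 89.5 and 12.4, and deleted exceeded floxed by a ratio of 1.90 (1.51 to 2.40). Il1r2, the decoy receptor for interleukin-1 on myeloid cells, which is counted here among the receptors, had 31, 59 and 37 counts, at a ratio of 1.83 (1.17 to 2.93). Il1rl2, the interleukin-36 receptor, had 25, 47 and 71 counts, at a ratio of 1.81 (1.09 to 3.07). Both are in the interleukin-1 receptor cluster on chromosome 1, where the other 4 genes were not scored: Il1r1 had 485, 515 and 802 counts, Il1rl1 (the interleukin-33 receptor) 135, 137 and 197, Il18r1 60, 47 and 51, and Il18rap, under the measured level, 10, 8 and 26. None of the 27 measured ligands was scored in either direction. The median log2 ratio was 0.03 over the 57 members and 0.02 over all measured genes.

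Between rescue and deleted, H3K27me3 was lower in rescue at 6 receptor genes and higher at 0 members. The background was 11.3% lower and 7.07% higher, and the members' 6 of 57 lower lies near it. Il6ra differed most, with a CPM ratio of 0.138 (0.100 to 0.187). The genes next to it did not share that size: She, with 317, 284 and 433 counts, was not scored, and Atp8b2, with 261, 314 and 333 counts, was lower at a ratio of 0.640. For Il1r2 the ratio was 0.378 (0.244 to 0.580), so the deleted library was the highest of the 3 at this gene too. Il20ra, an epithelial receptor chain for interleukins 19, 20 and 24, had 175, 200 and 198 counts, at a ratio of 0.597 (0.488 to 0.731). Il18r1, the interleukin-18 receptor of T and NK cells, had a ratio of 0.655 (0.432 to 0.994). The upper bound at Il18r1 lay just under 1. Il21r, the interleukin-21 receptor of lymphocytes, had 42, 42 and 38 counts, at a ratio of 0.546 (0.342 to 0.867). Il7r, the interleukin-7 receptor of lymphoid precursors, had 28, 28 and 24 counts, at a ratio of 0.517 (0.287 to 0.925). At Il20ra, Il21r and Il7r the raw counts were close to equal in the 3 libraries, while rescue held the most counts in all, and the CPM of rescue was the lowest. Of the 29 measured receptors 26 had a log2 ratio below 0, with a median of -0.33, and of the 27 measured ligands 16, with a median of -0.23. Over all measured genes 5947 of 10604 were below 0, with a median of -0.06. With TMM scaling the scores over all genes went from 1196 lower and 750 higher to 991 and 935, and those of the members from 6 and 0 to 5 and 0, as Il18r1 was no longer scored.

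Between rescue and floxed, 7 members were lower and 2 higher, against a background of 8.05% lower and 5.72% higher. Il6ra had a ratio of 0.263 (0.186 to 0.368), the lowest of the measured members. Among the other receptors Il18r1 had 0.494 (0.334 to 0.730), Il7r with 0.498 (0.277 to 0.892), Il21r with 0.526 (0.330 to 0.836) and Il20ra with 0.658 (0.534 to 0.811). Il20ra lost its score with TMM scaling, at 0.682, and with median-of-ratios scaling, at 0.669; TMM scaling turned the scores of all genes from 854 lower and 607 higher to 735 and 722. All 5 were also lower in rescue than in deleted, a comparison that uses the same rescue library. The other 2 lower genes were Il31, with a ratio of 0.489 (0.307 to 0.775), and Il17rc, a receptor chain for interleukins 17A and 17F, which had 89, 68 and 95 counts, at 0.621 (0.460 to 0.838). The 2 higher genes were Il1rl2, at 1.65 (1.03 to 2.72), and Il1f10, at 1.68 (1.06 to 2.73). Il1rl2 was low in floxed only, whereas at Il1f10 rescue was the highest library. The median log2 ratio was -0.15 over the members and -0.05 over all measured genes.

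**Figure D2:**
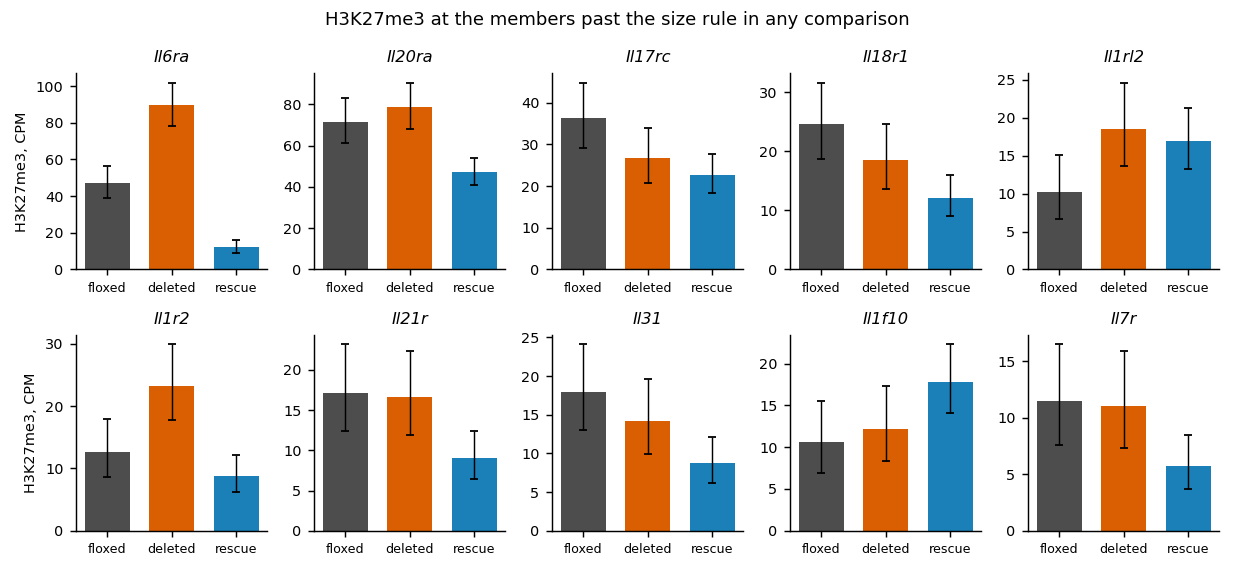
H3K27me3 in CPM for the 10 members that were scored lower or higher in any comparison, with 1 bar per library (floxed, deleted, rescue) and error bars for the 95% exact Poisson interval, which covers counting error only; each panel has its own axis from 0. Il6ra shows the largest step, from 89.5 CPM in deleted to 12.4 in rescue, while at most other genes the error bars of neighbouring libraries overlap.

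Il17rd had the most counts of any member, so its intervals, which cover counting error only, are narrow. Whether its differences exceed those between libraries of the same line cannot be told here. The share of all genes with differences of this size was not counted. Deleted against floxed gave a ratio of 0.720 (0.664 to 0.781). Rescue against deleted gave 1.39, with an interval that began at 1.29, and neither reached the size needed for a score. Deleted was thus the lowest library at Il17rd, the opposite of Il6ra. The neighbouring gene Arhgef3 had 310, 329 and 723 counts and Hesx1 37, 27 and 59, and neither was scored. Other well-counted members were not scored in any comparison: Il34, a ligand of the Csf1 receptor, had 573, 616 and 782 counts, and Il31ra, the interleukin-31 receptor, 395, 393 and 589.

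H3K4me3 was measured at 19 of the 83 members, and whether a member was measured went with the strand of its gene. Of the 38 members with a plus-strand RefSeq promoter entry 17 were measured, and of the 28 with a minus-strand entry 0, with a mean of at most 2.00 counts at any of them. The remaining 17 have no entry, and 2 of these were measured, Il10rb and Il17ra. The same split held over all named genes: 4781 of 9235 plus-strand genes (51.8%) were measured and 361 of 9223 minus-strand genes (3.91%). It also held for 716 minus-strand genes whose start lies within 300 bp of the start of a measured plus-strand gene, of which 47 (6.56%) were measured. Among minus-strand genes of at most 2 kb 10.6% were measured, and among those over 10 kb 2.04%; for plus-strand genes these shares were 14.6% and 60.0%. The sources used here do not give where the window lies. They do not give the strand setting of the counting either, and the cause of the split was not tested. Counts near 0 at minus-strand members are therefore not read here as unmarked promoters. This touches receptors that myeloid or lymphoid cells use (Il6ra, Il2rg, Il5ra and Il7r) and ligands (Il1a, Il1b, Il3, Il4, Il13 and Il16). At Il6ra, whose promoter is rich in CG, the H3K4me3 window held 0 counts in all 3 libraries.

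**Figure D3:**
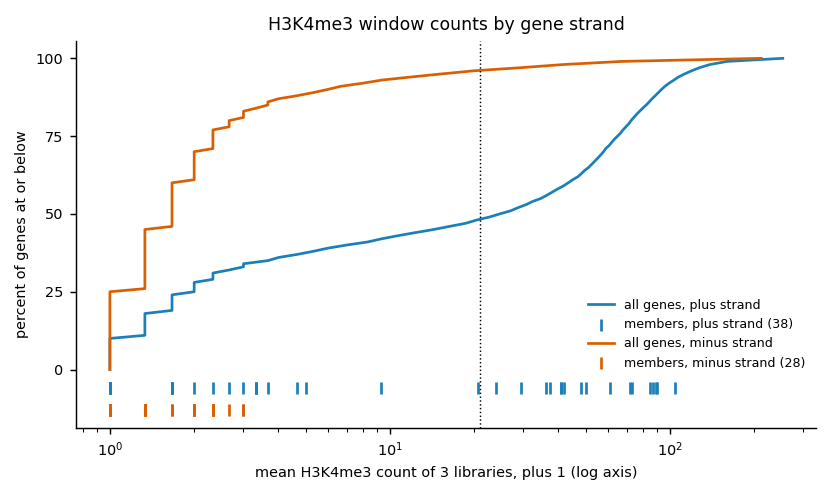
Cumulative share of genes (percent at or below) by mean H3K4me3 window count of the 3 libraries plus 1 (log axis), for all plus-strand and all minus-strand named genes, with a tick below for each member and a dotted line at the measured level of 20 counts. The plus-strand curve passes the line at about 48 percent and the minus-strand curve at about 96 percent, and all 28 minus-strand members lie far to the left of the line.

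Among the plus-strand members, H3K4me3 was measured at 14 of 21 receptors and 3 of 13 ligands. The receptors were the longer genes, with a median length of 35303 bp against 6932 bp. Long plus-strand genes were measured more often than short ones, and the part of length was not tested. In the grouping by cells given above, it was measured at 8 of 13 myeloid members, 2 of 8 lymphoid members and 7 of 17 of other tissues. The myeloid members again include chains of many cells, such as Il6st and Il4ra. The share over all plus-strand members was 44.7%, below the 51.8% of all plus-strand genes. For CG content each gene was represented by its start with the most CG, and whether the window lies there is not known. By that measure the promoters of the 17 measured members held a median of 16 CG and those of the other 21 a median of 4. At least 10 were held by 12 of the 17 but 2 of the 21. Il12a, Il15ra and Il1r1 reached 10 only at the richer of their 2 starts. Over all plus-strand genes the medians were 23 and 4, and 90.2% of the measured and 25.9% of the others held at least 10. The promoters of Il6st, Il17rd and Il2ra printed above show this range, and Il1f9 shows a measured window with a single CG.

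The 8 members with the highest H3K4me3 were the shared chains Il6st, Il10rb, Il17ra and Il1rap beside Il15ra, Il17d, Il17rd and Il20ra. Il6st had 129, 110 and 72 counts, or 199.9, 261 and 182 CPM, and was the highest member. Il10rb had 122, 70 and 76 counts, Il15ra, the high-affinity chain for interleukin-15, 121, 77 and 68, and Il1rap 130, 71 and 58. The raw counts were highest in floxed at each of them, and the floxed library was also the deepest. Il4ra had 101, 53 and 60 counts and Il3ra 59, 30 and 31, or 91.4, 71.3 and 78.5 CPM for Il3ra. None of these 6 was scored in any comparison, nor was Il20ra, which stood among the 8 highest members with 109, 51 and 57 counts. Il2rg had 1, 0 and 0 counts, but it is a minus-strand gene. Only 3 plus-strand ligands were measured: Il17d, a broadly expressed ligand of the interleukin-17 family, with 128, 84 and 52, Il12a, the p35 chain of interleukin-12, with 59, 42 and 47, and Il1f9, the skin ligand interleukin-36 gamma, with 46, 52 and 25. Il6, with 26, 22 and 11 counts, fell just under the measured level, as did Il12rb1 (26, 14 and 13) and Il22ra2 (24, 10 and 12); the lowest measured were Il18rap (30, 20 and 19) and Il21r (45, 21 and 19). The ligands of T cells on the plus strand were near 0, with 1, 0 and 1 counts at Il5, 1, 4 and 2 at Il17a and 0 in all 3 at Il22. The interleukin-2 receptor alpha chain Il2ra, a marker of activated T cells, had 5, 1 and 2.

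**Figure D4:**
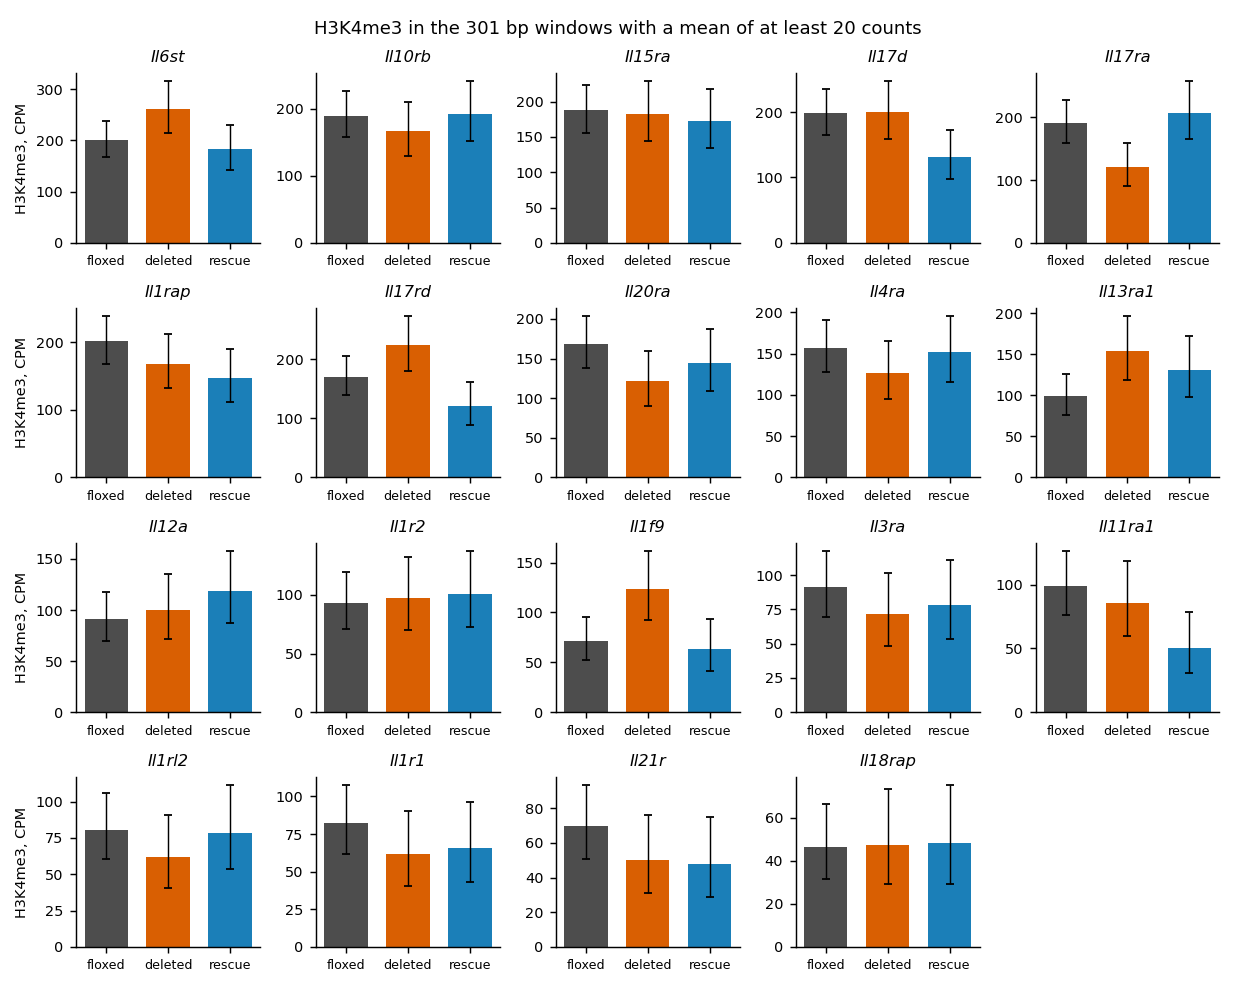
H3K4me3 in CPM in the 301 bp window of the 19 measured members, with 1 bar per library (floxed, deleted, rescue) and error bars for the 95% exact Poisson interval, which covers counting error only; each panel has its own axis from 0. The intervals are wide and overlap at most genes; Il17ra dips in deleted, and Il1f9 and Il13ra1 are highest there.

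Between deleted and floxed, H3K4me3 was lower at 1 member and higher at 2, against a background of 4.39% lower and 3.02% higher among 6681 measured genes. Il17ra, the shared interleukin-17 receptor, had 123, 51 and 82 counts, and the deleted library was the lowest in CPM too. Its ratio was 0.636 (0.450 to 0.888). Il13ra1, a receptor chain for interleukins 4 and 13, had 64, 65 and 52 counts, at a ratio of 1.56 (1.09 to 2.24). Il1f9 had a ratio of 1.73 (1.14 to 2.64). Il13ra1 lost its score with TMM scaling, at a ratio of 1.49, and with scaling to background windows, at 1.39; TMM scaling turned the scores of all genes from 293 lower and 202 higher to 403 and 139, and background scaling to 653 and 91. Among the 17 measured plus-strand members alone 0 were lower and 2 higher, against 3.97% and 2.99% of all measured plus-strand genes. The median log2 ratio was -0.18 over the 19 members and -0.03 over all measured genes.

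Between rescue and deleted, H3K4me3 was lower at 3 members and higher at 1, against a background of 5.97% lower and 4.49% higher. Il1f9 had a ratio of 0.512 (0.304 to 0.840), Il17rd, with 110, 94 and 48 counts, 0.544 (0.376 to 0.778), and Il17d 0.659 (0.457 to 0.942). Il17ra was the higher one, at 1.71 (1.19 to 2.48), so its rescue level lay near that of floxed, at a ratio of 1.09. With background scaling, which gave 353 lower and 387 higher over all genes in place of 399 and 300, Il17d was no longer scored, at a ratio of 0.680. Among plus-strand members alone 3 were lower and 0 higher, against 5.73% and 3.99% of measured plus-strand genes. Between rescue and floxed, 2 members were lower and 0 higher, against a background of 3.92% and 1.92%, or 3.74% and 1.88% among plus-strand genes, to which both belong. They were Il17d, at 0.663 (0.471 to 0.923), and Il11ra1, the interleukin-11 receptor, which had 64, 36 and 20 counts, at a ratio of 0.510 (0.292 to 0.854). Il11ra1 has the near-identical copy Il11ra2, and its counts are uncertain for that reason. TMM scaling turned the scores of all genes here from 262 lower and 128 higher to 341 and 91, and background scaling to 495 and 62, with 2 and 3 members lower. The counts behind each of these scores are small, and with 1 library a line they describe these libraries only.

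Set side by side at the plus-strand members, H3K27me3 was the lower where H3K4me3 was measured. The 17 members with measured H3K4me3 had a median H3K27me3 of 0.343 CPM per kb and the 21 without it 1.30. The first group held the longer genes, with a median length of 33942 bp against 11709 bp, and the part of length was not tested. Il15ra, Il4ra and Il12a lay at the low end of H3K27me3, and Il5, Il1f5, Il1f10 and Il22ra1 (the interleukin-22 receptor of epithelia, with 233, 271 and 329 H3K27me3 counts) at the high end with H3K4me3 near 0. Some genes had both: Il17rd, with the densest H3K27me3 of all members, and Il6st, Il1r1, Il20ra and Il17d. At Il1r1, the signalling receptor for interleukin-1, 53, 26 and 26 H3K4me3 counts stood beside 485, 515 and 802 for H3K27me3. Whether the 2 marks at such genes lie on the same alleles or in different cells cannot be told apart in these libraries. Il17c, Il1rn and Il1rapl2 had little of either mark.

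**Figure D5:**
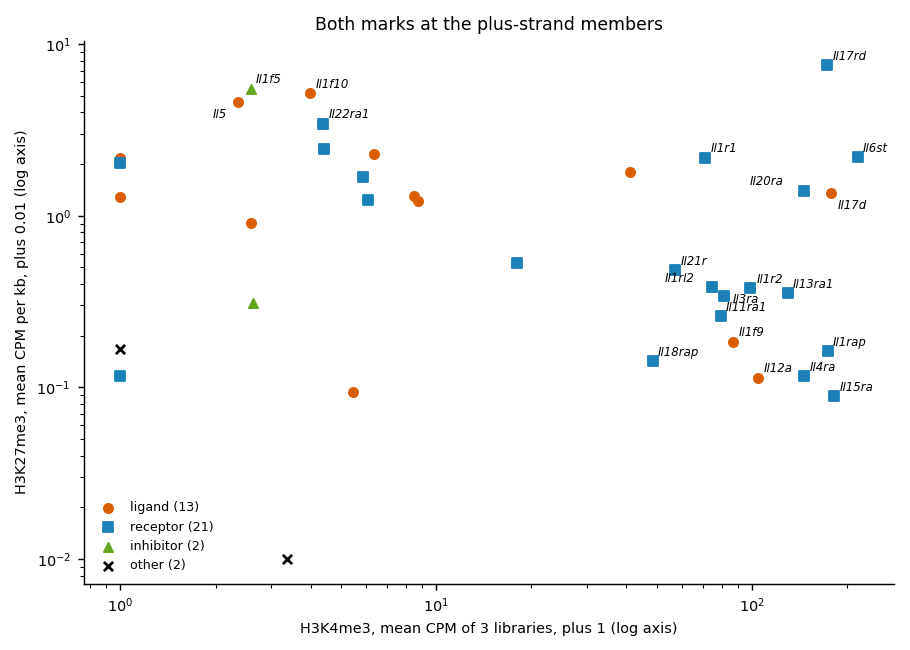
H3K27me3 in mean CPM per kb plus 0.01 (log axis) against H3K4me3 in mean CPM plus 1 (log axis) for the 38 plus-strand members, with 1 point per gene, the mean of the 3 libraries, shaped by role. Il17rd and Il6st stand at the upper right with both marks, Il15ra and Il4ra at the lower right, and Il1f5, Il5 and Il1f10 at the upper left.

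Flag summits, the positions called in the Flag libraries, touched few members. The files held 475 summits in floxed, 220 in deleted and 429 in rescue, and the floxed and deleted lines carry no Flag tag by their labels. A summit lay inside or within 10 kb of 2 of 83 members in floxed (2.41%), 0 in deleted and 1 in rescue (1.20%), against 0.692%, 0.324% and 0.582% of all genes with a position. Il1rapl1, a synaptic member of the interleukin-1 receptor family, held a summit at X:87090526 in floxed and 1 base away at X:87090525 in rescue, each with an authors' −log10 score of 11.8, and another in rescue with a score of 6.17. Il1rapl1 is the longest member, at 1368382 bp. Il9r held a summit in floxed at a score of 3.57. The second summit of Il1rapl1 was the only one inside or within 10 kb of a member in rescue without a counterpart in an untagged line.

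Related genes outside the interleukins were read by the same rule. Of 25 other cytokine and growth factor genes and their receptors 13 had measured H3K27me3. In deleted against floxed 2 of them were lower, against the background of 5.39%: Clcf1, a ligand of the interleukin-6 family, with 216, 140 and 378 counts and a ratio of 0.625, and the erythropoietin receptor Epor, with 253, 163 and 363 counts and a ratio of 0.621. Set against deleted, rescue was lower at 4 of them and higher at 2, against the background of 11.3% and 7.07%. The lower ones were Csf1, Csf1r, Kit and Kitl, of which the stem cell factor receptor Kit had 255, 260 and 187 counts, at a ratio of 0.434 (0.358 to 0.526) and its ligand Kitl 157, 142 and 88 counts and a ratio of 0.374. The higher ones were Lif, with 44, 32 and 147 counts and a ratio of 2.77, and Clcf1, at 1.63. At Kit and Kitl rescue was the lowest library, as at Il6ra. In rescue against floxed the same 4 were lower and 1, Lif, was higher, against 8.05% and 5.72%. H3K4me3 was measured at 7 of the 25, and strand limits this count too, since of the 10 with a minus-strand entry 0 were measured. Lifr was higher in deleted than in floxed, against 3.02%, and higher in rescue than in floxed, against 1.92%. Osm was lower in rescue than in floxed, against 3.92%. Of 11 JAK and STAT genes, which carry the signal from most interleukin receptors, 4 had measured H3K27me3 and 5 measured H3K4me3. The 1 scored in these 2 comparisons was Stat6, the mediator of interleukin-4, with 111, 41 and 48 H3K4me3 counts. Its ratio was 0.567 for deleted against floxed, where 4.39% of all measured genes were lower. In rescue against floxed Jak2 was lower for H3K27me3, against 8.05%. Of 8 SOCS and CIS inhibitors 2 had measured H3K27me3. Socs2, with 53, 33 and 24 counts, was lower in both comparisons, at 0.600 and 0.439, against 5.39% and 11.3% of all measured genes. It was also lower in rescue than in floxed, against 8.05%. Socs5, with 15, 31 and 31 counts, was higher in deleted than in floxed, at 1.99, against 4.72%. Of the 4 with measured H3K4me3, 0 were scored. Of 10 adaptors of interleukin-1 and interleukin-17 signalling, 3 had measured H3K27me3 and 4 measured H3K4me3. Irak2, with 76, 22 and 33 H3K4me3 counts, was lower in deleted than in floxed at a ratio of 0.444 (0.263 to 0.721), against 4.39%. Sigirr, an inhibitory receptor, had 16, 15 and 60 H3K27me3 counts and a ratio of 2.41 for rescue against deleted, where 7.07% of all measured genes were higher. In rescue against floxed Sigirr and Traf3ip2 were higher, against 5.72%. With so few measured genes a list, these scores describe single genes only. For H3K4me3, 0 of 4 minus-strand genes were measured among the JAK and STAT genes and 0 of 4 among the adaptors. Among the SOCS and CIS inhibitors it was 1 of 2. Unmeasured minus-strand genes are not read here as unmarked.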

How the data were processed

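The values for the histone marks are raw counts, deposited by the authors as whole numbers without normalisation; per the submitters' processing notes featureCounts, MACS2 and the build mm10 were used. Versions, the strand setting of the counting and the aligner are not given in the sources used here, and neither is the position of the H3K4me3 window. The Flag files hold summits with a −log10 score, deposited by the authors, in the layout MACS2 writes. Rows without a symbol (568, with 0.608% to 0.739% of a library's counts) were left out.

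CPM, ratios and exact conditional binomial intervals were computed over the whole table in Python 3.11.15 (numpy 2.4.6, scipy 1.17.1, pandas 2.3.3). For log2 ratios a prior count of 1, scaled to library size, was added. The script was tested on simulated data. Gene positions, strands and promoters came from RefSeq tables of GRCm38.p6, matched by Entrez identifier. A position was found for all 83 members and a promoter for 66 (81 entries, since some genes have several starts), while 17 have none.

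Named genes were every member scored in any of the 6 comparisons, the 8 members with the highest mean level of each mark, the shared receptor chains, and Il3, Il3ra, Il6 and Il6ra. Other genes named, such as those just outside a threshold, those with both marks and those of related lists, were added after their values were seen. The members and the lists of related genes and markers were chosen with earlier results of these data known. Alternatives were TMM factors (edgeR 4.0.16), median-of-ratios size factors, scaling to background (H3K27me3 to the 20% of genes with the most H3K4me3, H3K4me3 to the windows below the median), no filter on counts, a fold of 2 and a prior count of 5. An alternative with plus-strand members only was chosen after seeing the data.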

Additional observations from a re-analysis of the deposited data

How the results depend on the processing

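No paired analysis was possible because each mark and line has 1 library. Under the alternatives tried no scored ratio changed direction, but this could hardly have come out otherwise. The filter and the fold leave a ratio as it is. The scalings moved ratios by little against the 1.5 needed for a score. At a fold of 2, the H3K27me3 counts of members became 0 higher in deleted against floxed, 2 lower in rescue against deleted (Il1r2 and Il6ra), and 4 lower and 0 higher in rescue against floxed. Over all 10604 measured genes that fold gave 145 lower and 177 higher in deleted against floxed. In rescue against deleted it gave 484 and 323, and in rescue against floxed 319 and 289. At that fold the H3K4me3 counts of members became 0 in each comparison and direction. Among all 6681 measured genes it gave 70 lower and 42 higher, 194 and 80, and 98 and 20, in the same order. Without the filter on counts, H3K27me3 in deleted against floxed gave 1 member lower (Il1a, 19 against 7 counts) and 4 higher, with Il1rn added; rescue against deleted gave 8 lower, with Il1b and Il1rn added, and rescue against floxed 8 lower, with Il1b added. For H3K4me3 it gave 3 higher in deleted against floxed, with Il1b added, and 1 higher in rescue against floxed (Il1a). For H3K4me3 in deleted against floxed, TMM scaling left 1 member higher, and background scaling gave 2 lower and 1 higher. With plus-strand members only, which was chosen after seeing the data, 0 were lower in deleted against floxed and 0 higher in rescue against deleted, since Il17ra has no strand entry. Of the 27 scored ratios of single members, 21 missed a fold of 2, 3 lost their score with TMM scaling, 2 with median-of-ratios factors and 2 with background scaling. For H3K27me3, Il18r1 in rescue against deleted (0.689 and 0.675) and Il20ra in rescue against floxed (0.682 and 0.669) lost it with TMM and median-of-ratios scaling. The cause of these changes was not tested. Background scaling moved the median log2 H3K4me3 ratio of all measured genes from -0.03 to -0.20 in deleted against floxed and from -0.01 to -0.13 in rescue against floxed, and the ratios of members are to be read against these shifts. Depth limits H3K4me3 most: the ratio of 1.56 at Il13ra1, from 64 and 65 counts, has an interval of 1.09 to 2.24.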
